A study of Rattus norvegicus with 11 samples.

Results

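Expression of the neurotrophins Bdnf and Ntf3 and of the receptors Ntrk2, Ntrk3 and Ngfr was compared between rats with a history of heroin self-administration and rats given saline, in tissue of the medial prefrontal cortex. These are 5 of the 35581 gene names on the array. They were chosen by name, and each probe carrying one of these names was kept apart, which gave 7 of the 41012 non-control probes. The heroin group held 6 male rats, 4 months of age, that had taken heroin in 14 daily sessions of 3 hours. The saline group held 5 male rats of the same age that were yoked to heroin rats and received saline infusions, so they never had the drug. Both groups then spent 14 days in abstinence and went through a 90-minute extinction session without drug, directly after which the tissue was taken. Each rat gave 1 single-colour array with probes of 60 nucleotides, and rats without the extinction session were not analysed here.

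Neurotrophins are secreted proteins that neurons use to control survival, growth of processes and the strength of synapses. Each is made as a longer proneurotrophin and cut to a mature form, and mature neurotrophins bind receptor tyrosine kinases of the Trk family, which signal through Ras and ERK, PI3 kinase and Akt, and phospholipase C. The p75 receptor, encoded by Ngfr, binds all neurotrophins and their proforms and lacks a kinase. In the cortex Bdnf is transcribed in excitatory neurons in response to activity, and its mRNA exists with a short and a long 3' untranslated region. The Bdnf receptor trkB, encoded by Ntrk2, is made in a full-length form with a kinase and in truncated forms without one, which share the extracellular part.

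The probes decide which of these transcripts each signal reports, so they are shown here. Positions are those the array files give in rat genome build rn3, and sequences run 5' to 3'. The exon or untranslated region in which a probe lies was not analysed here, since no annotation of this build was used. Both Bdnf probes lay on the plus strand of an unplaced part of chromosome 3, within 3096 bases. The first, at chr3_random:976345-976404, contains an ATG after the bases ccaccaggtgagaagagtg, and the second, at chr3_random:979381-979440, ends close to an AATAAA, the hexamer of a polyadenylation signal. These are called the start-codon probe and the 3' probe below. The whole start-codon probe with the ATG in capitals, and the last 30 bases of the 3' probe with the hexamer in capitals, read:
Bdnf start-codon probe: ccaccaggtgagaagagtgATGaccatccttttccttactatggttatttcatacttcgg
Bdnf 3' probe, last 30 bases: tctgagagacgttagtcaaacaAATAAAag

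The Ntrk2 probes lay on the minus strand of chromosome 17, far apart. The probe at chr17:11754284-11754343 is assigned by the array files to full-length as well as truncated trkB transcripts and is called the shared probe, and the probe at chr17:11495183-11495242 is assigned to full-length trkB alone and is called the full-length probe. Between them lies a probe, at chr17:11680049-11680108, that the files assign to a truncated trkB transcript under another name, so that it is no member. It is 74.2 kb from the shared probe and 185 kb from the full-length probe, and it was used for comparison. The whole shared probe and the last 30 bases of the other probes of this gene, printed because they separate the trkB forms, read:
Ntrk2 shared probe: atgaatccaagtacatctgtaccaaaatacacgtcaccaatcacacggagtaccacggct
Ntrk2 full-length probe, last 30 bases: aaactctgcatcatggacacagtttccgat
Truncated trkB probe, last 30 bases: atttataggtttttctcttaacagtcccag

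Ntf3, Ntrk3 and Ngfr had 1 probe each. The Ntf3 probe lay at chr4:162681509-162681568, the Ntrk3 probe at chr1:134003888-134003947 and the Ngfr probe at chr10:84277452-84277511, all on the minus strand. The 3' Bdnf probe, the full-length Ntrk2 probe and the Ngfr probe were each printed as 10 spots per array and the other members as 1 spot.

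Signals are given in array medians, the background-corrected intensity of a probe divided by the median over all non-control probes of the same array, and they compare rats at 1 probe but not probes with each other. Array medians before scaling were 42.7 to 78.3 in the heroin group and 58.0 to 83.2 in the saline group. The software found 28185 to 33209 probes above background per heroin array and 30098 to 33835 per saline array. A probe counted as changed when limma gave an unadjusted p under 0.02 and the groups differed by at least 1.4-fold, which are the thresholds of the study. Of 25555 probes detected on all arrays, 694 did so, or 2.72%, and 1.79% were higher in heroin rats. With limma no probe had a Benjamini-Hochberg adjusted p under 0.05, although 4723, or 18.5%, had an unadjusted p under 0.05 (1971 under quantile normalization), and the methods' t-test likewise gave 0 after adjustment. On this scale the median change of all tested probes was 0.18 on the log2 scale. Quantile normalization moved that median to 0.01, so values under it are given where they alter a result. The slide of an array was inferred from scan times that arrays share, which gave 6 slides, of which 5 held 1 heroin and 1 saline rat with the same replicate number. On each slide the heroin rat had array position 4 and the saline rat position 3, so position and group cannot be told apart.

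Of the 6 member probes detected on all arrays, 2 passed both thresholds, beside 2.72% of all tested probes. Both were probes of Bdnf, so the calls come from 1 gene. Both were higher in heroin rats. The changes of the 6 probes were all above 0, at 0.01 to 0.90 on the log2 scale, but under quantile normalization only 4 of the 6 were, and those of Ntf3 and the full-length Ntrk2 probe fell below 0. In the plot of signals by rat, the groups stand apart only at the 3' Bdnf probe.

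**Figure D1:**
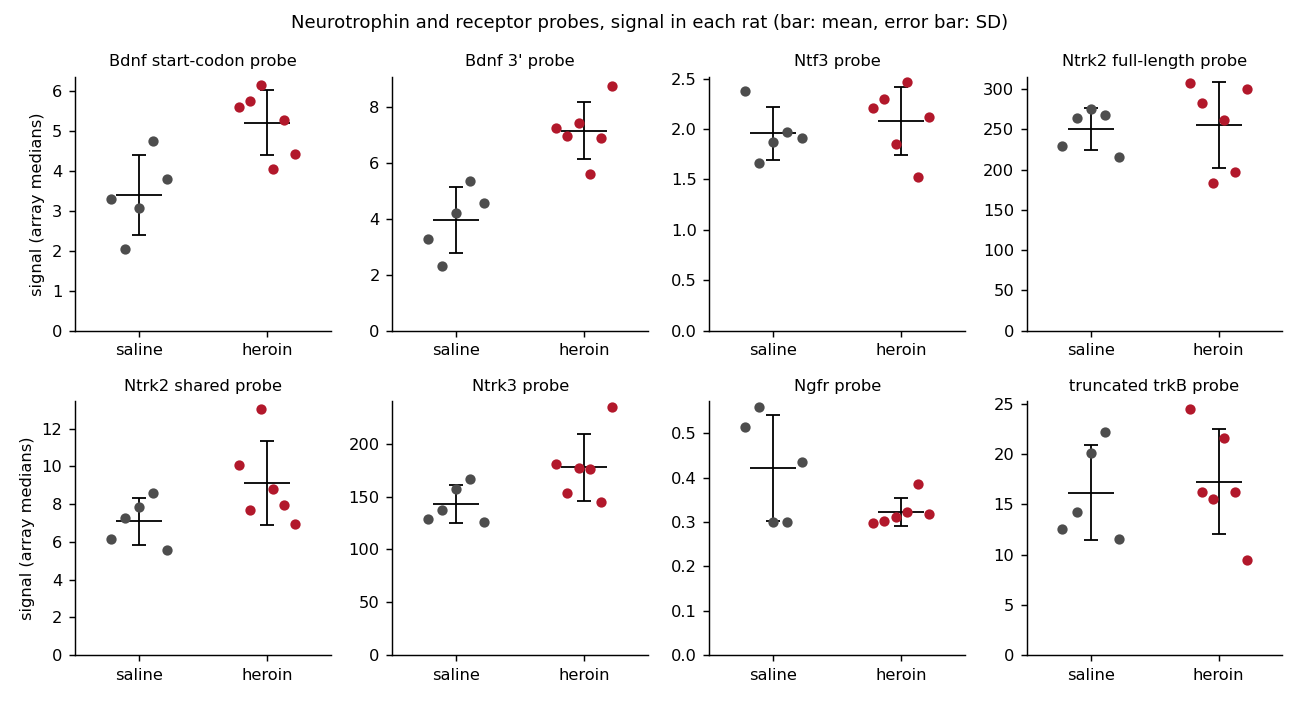
Signal in array medians (linear axis from 0) of each member probe and of the truncated trkB probe in the 5 saline and 6 heroin rats, 1 point per rat, with the mean and SD of each group. At the 3' Bdnf probe the heroin rats, at 5.61 to 8.75, lay above the saline rats, at 2.32 to 5.37, while the groups overlapped at the other probes.

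Bdnf, the activity-regulated ligand of trkB, had higher signals in heroin rats at its 3' probe. The saline rats with replicate numbers 2 to 6 measured 3.27, 2.32, 4.22, 5.37 and 4.57 array medians. The heroin rats ranged from 5.61 to 8.75 with a median of 7.12. Each heroin rat lay above each saline rat, which was so at 1.66% of all tested probes. The lowest heroin rat, replicate 4, exceeded the highest saline rat, replicate 5, by little. The means were 7.16 ± 1.01 (SD, n = 6) and 3.95 ± 1.18 (SD, n = 5) array medians. The fold change was 1.87, a log2 change of 0.90 (SE 0.19, 95% interval 0.49 to 1.32). The limma p was 3.1e-04, and its Benjamini-Hochberg adjusted value of 0.263 over all tested probes did not pass 0.05. The exact permutation test over the 462 divisions of the rats gave a two-sided p of 0.00216, the smallest it can give. This probe is on the list of changed genes that the study drew from these same arrays, so its test is not independent evidence. The study also measured Bdnf by RT-qPCR, with RNA from the samples used for the arrays, and reported a rise smaller than this fold change.

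The start-codon probe of Bdnf, which the study does not list, was also higher in heroin rats. The saline rats measured 3.30, 2.03, 3.08, 4.76 and 3.79 array medians, and the heroin rats ranged from 4.05 to 6.15 with a median of 5.44. Here the groups overlapped, since saline replicate 5 lay above heroin replicates 4 and 6, and 4 of 6 heroin rats exceeded all saline rats. The means were 5.21 ± 0.81 (SD, n = 6) and 3.39 ± 0.999 (SD, n = 5) array medians, a fold change of 1.58 and a log2 change of 0.66 (SE 0.19, 95% interval 0.25 to 1.07). The limma p was 0.0039, adjusted to 0.263 over all probes, and the exact permutation test gave a two-sided p of 0.0130. Under quantile normalization the log2 change was 0.46 with a limma p of 0.030, which did not pass the threshold, whereas the 3' probe passed at 0.70 with a limma p of 0.0022.

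The changes at both Bdnf probes were not shown to differ over all 11 rats. The log2 ratio of the 3' probe to the start-codon probe had an SD between rats of 0.27 in the heroin and 0.17 in the saline group. The change at the 3' probe exceeded that at the start-codon probe by 0.25 on the log2 scale, with an exact permutation p of 0.069, or 0.139 after adjustment over the 2 genes with a pair of member probes. Over the 11 rats, the deviations of both probes from their group means had a Pearson r of 0.79 (permutation p 0.0049, adjusted over 3 such relations 0.0147) and a Spearman rho of 0.58 (permutation p 0.0636, adjusted 0.0955). Without the 2 rats farthest from the median r was 0.31, so the relation rests on those rats. With both probes averaged, the change of Bdnf was 0.78 on the log2 scale.

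The rise in Bdnf was seen on each slide that held both groups, but its size differed between slides. At the 3' probe the groups did not overlap, so any pairing of rats gives differences above 0 and the sign adds no evidence. At the 3' probe the heroin rat exceeded the saline rat of its slide by 1.09, 1.68, 0.41, 0.36 and 0.94 on the log2 scale for replicate numbers 2 to 6. At the start-codon probe the same slides gave 0.81, 1.60, 0.39, 0.15 and 0.22. The slide with replicate 3, whose saline rat had the lowest Bdnf signal of all rats at both probes, gave the highest value. With the replicate number, and so the slide, as a block, the changes were 0.90 and 0.63 and both probes still passed both thresholds, as did 3.15% of all probes. An exact sign-flip test over 5 slides cannot give a two-sided p under 0.0625, the value both probes had.

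**Figure D2:**
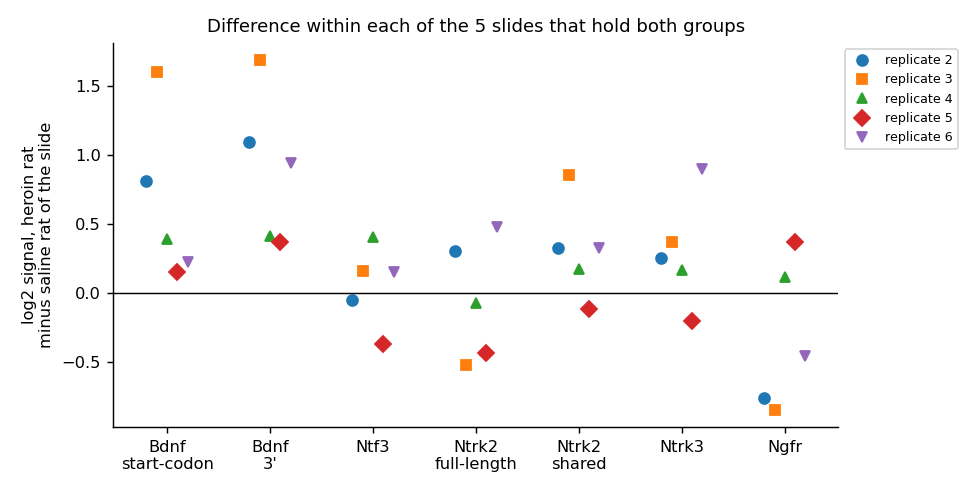
Difference in log2 signal between the heroin and the saline rat of the same slide, as inferred from shared scan times, 1 symbol per slide, named by the replicate number its rats share. Both Bdnf probes lie above 0 on all 5 slides, at 0.36 to 1.68 for the 3' probe, while the full-length Ntrk2 probe lies on both sides of 0, at -0.53 to 0.48. For the 3' probe the sign follows from groups that do not overlap.

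The 10 spots of the 3' probe on an array had a median SD of 0.06 on the log2 scale, while the SD between rats was 0.21 in the heroin group and 0.47 in the saline group. All 60 heroin and 50 saline spots were well above background. The signals were 9.33 to 33.4 times the lowest signal that the software scored as well above background on the same array.

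**Figure D3:**
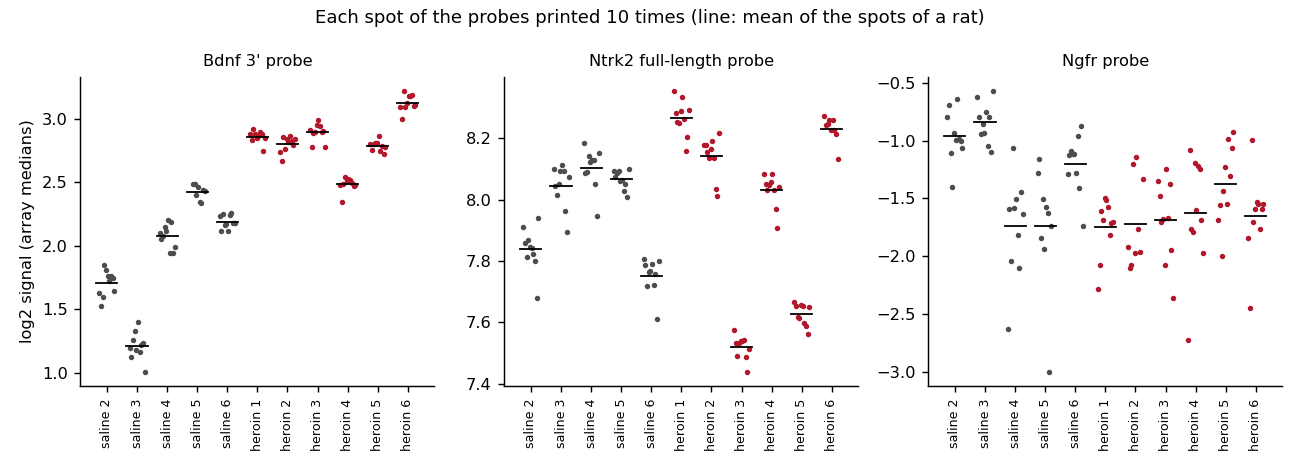
Each spot of the 3 member probes printed 10 times per array, in log2 array medians, with a line at the mean of each rat. Spots of 1 rat lie close together for Bdnf and for full-length Ntrk2, with median SDs of 0.06 for both, and scatter widely for Ngfr, with a median SD of 0.35.

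Ntf3, which encodes neurotrophin-3, the preferred ligand of trkC, did not pass the thresholds. The saline rats measured 2.38, 1.66, 1.87, 1.97 and 1.91 array medians, and the heroin rats 1.53 to 2.47 with a median of 2.16. The group ranges overlapped almost fully. The means were 2.08 ± 0.34 (SD, n = 6) in heroin and 1.96 ± 0.26 (SD, n = 5) in saline rats, a log2 change of 0.08 with a 95% interval of -0.23 to 0.39 and an exact permutation p of 0.571. The interval leaves out a change of the size seen at the 3' Bdnf probe, and the sign turned to -0.06 under quantile normalization.

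Among the receptors, the full-length Ntrk2 probe had group means that differed by less than the spread between rats. The saline rats measured 229, 264, 275, 268 and 216 array medians, and the heroin rats 183 to 308 with a median of 272. Heroin rats lay on both sides of the saline range, with 3 above all saline rats and 2, replicates 3 and 5, below all of them. The means were 256 ± 53.1 (SD, n = 6) and 250 ± 26.3 (SD, n = 5), or a log2 change of 0.01 with a 95% interval of -0.33 to 0.35 and an exact permutation p of 0.959. Quantile normalization turned the sign, to -0.23, with a limma p of 0.098. The SD between rats was 0.32 on the log2 scale in the heroin group and 0.16 in the saline group, and the median SD between the 10 spots of an array was 0.06.

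The shared Ntrk2 probe gave higher means in heroin rats, short of the thresholds. The saline rats measured 6.16, 7.24, 7.85, 8.61 and 5.57 array medians, and the heroin rats 6.96 to 13.1 with a median of 8.39. Heroin replicate 3 was the highest rat at this probe and the lowest at the full-length probe. The means were 9.10 ± 2.22 (SD, n = 6) and 7.08 ± 1.23 (SD, n = 5), or a log2 change of 0.35 with a 95% interval of -0.02 to 0.71 and an exact permutation p of 0.0909. Under quantile normalization it was 0.12, and without heroin replicate 3 it was 0.24.

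The truncated trkB probe did not differ between the groups beyond the spread between rats. The means were 17.3 ± 5.23 (SD, n = 6) in heroin and 16.1 ± 4.73 (SD, n = 5) in saline rats, with a log2 change of 0.08, a 95% interval of -0.42 to 0.58 and an exact permutation p of 0.758. Its sign turned to -0.15 under quantile normalization and to -0.028 with the replicate block. The change of the shared probe minus that of the full-length probe was 0.34 on the log2 scale, with an exact permutation p of 0.214, the same after adjustment. That difference was 0.46 with a p of 0.0397 without heroin replicate 6 and 0.14 without heroin replicate 3. The shared probe minus the truncated probe gave 0.26, with an exact permutation p of 0.266. Since the shared probe reports both forms, only the truncated minus the full-length probe sets them against each other. That gave 0.08, with an exact permutation p of 0.820, so no difference between trkB forms was detectable over all 11 rats.

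Over the rats, the shared probe was set against the truncated and the full-length probe, and neither relation passed after adjustment. Deviations from the group means had a Pearson r of 0.62 (permutation p 0.0414, adjusted 0.0621) and a Spearman rho of 0.67 (permutation p 0.0284, adjusted 0.0851) over 11 rats between shared and truncated probes. Without the 2 farthest rats r was 0.86. Between shared and full-length probes r was -0.17 (permutation p 0.616) and rho -0.10 (permutation p 0.774), and r was 0.66 without the 2 farthest rats, so that its sign rests on those rats.

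Ntrk3 encodes trkC, the receptor tyrosine kinase for neurotrophin-3. The saline rats measured 129, 137, 157, 167 and 126 array medians, and the heroin rats 145 to 235 with a median of 176. The groups overlapped, and 4 of 6 heroin rats lay above all saline rats. The means were 178 ± 31.4 (SD, n = 6) and 143 ± 18.0 (SD, n = 5), or a log2 change of 0.30 with a 95% interval of -0.002 to 0.61. The limma p was 0.052, short of the threshold, and the exact permutation test gave a two-sided p of 0.0433. Heroin rats exceeded saline rats on 4 of 5 slides. The change was 0.06 under quantile normalization and 0.22 without heroin replicate 6, the highest rat.

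**Figure D4:**
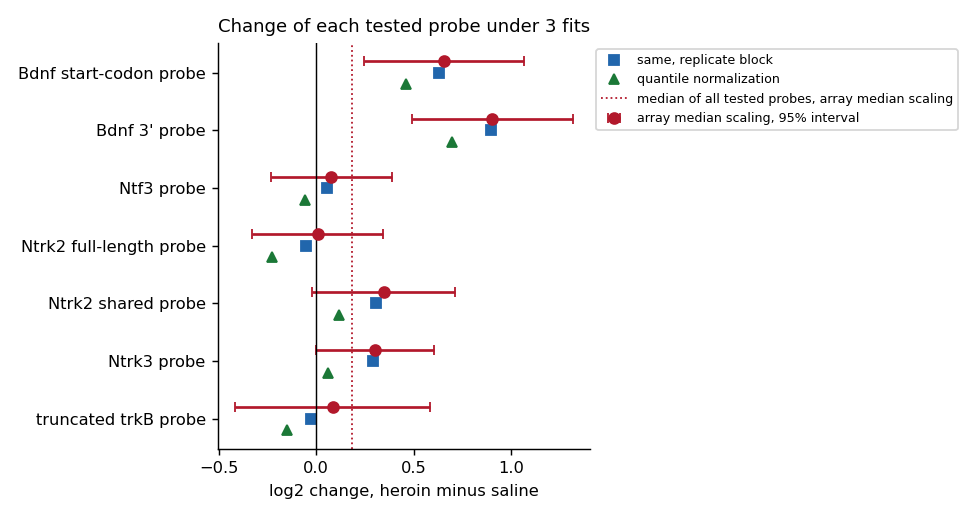
Log2 change, heroin minus saline, of each tested member probe and of the truncated trkB probe, with limma's 95% interval for array median scaling, and the values with the replicate number as a block and under quantile normalization. Both Bdnf probes lie right of 0 under all 3 fits, at 0.46 to 0.90, and the interval of the Ntf3 and all trkB probes includes 0.

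Ngfr, the p75 receptor gene, was close to the limit of detection. Its probe counted as detected, with at least 0.5 of its 10 spots well above background, on 4 of 6 heroin arrays and 5 of 5 saline arrays, so it was not part of the limma fit. Its signals were 1.01 to 2.25 times the lowest signal well above background. The saline rats measured 0.51, 0.56, 0.30, 0.30 and 0.44 array medians, and the heroin rats 0.30 to 0.39 with a median of 0.31. The means were 0.32 ± 0.03 (SD, n = 6) and 0.42 ± 0.12 (SD, n = 5), or a log2 change of -0.34 with an exact permutation p of 0.104. It was -0.17 under quantile normalization and -0.21 in the authors' table. Of the single spots, 37 of 60 in heroin and 44 of 50 in saline rats were well above background. The spots of an array had a median SD of 0.35 on the log2 scale, and the SD between rats was 0.13 in the heroin and 0.43 in the saline group.

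The other genes of the pathway were placed in 7 lists with 126 genes, of which 112 had their brightest probe detected on all arrays. Of these, 8 passed both thresholds as higher and 1 as lower in heroin rats, together 8.04%, beside 2.72% of all probes. The first share counts genes by their brightest probe and the second counts single probes, so the shares are not like for like. Under quantile normalization 3 of the 112 passed, which were Crk, Foxo3 and Egr2, beside 1.79% of all probes. The probes of Serpini1, Crk, Egr1, Homer1 and Dusp6 are on the study's own list from these arrays and are not independent evidence.

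None of the 8 tested ligands and receptors outside the members passed, at a median log2 change of 0.21, beside 0.18 for all probes. Sort1, which encodes sortilin, a co-receptor of p75 for proneurotrophins, had a log2 change of 0.20 that was -0.01 under quantile normalization. Ntf4, neurotrophin-4, was detected on 9 of 11 arrays and was not tested, with 0.41 ± 0.14 (SD, n = 6) and 0.41 ± 0.05 (SD, n = 5) array medians.

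Of 11 tested genes for processing and release of proneurotrophins, Serpini1 passed. It encodes neuroserpin, an inhibitor of tissue plasminogen activator, and rose from 44.8 ± 8.37 (SD, n = 5) to 63.0 ± 11.5 (SD, n = 6) array medians, or a log2 change of 0.49. All 11 changes were above 0, at a median of 0.35, beside a median of 0.18 for all tested probes. Most tested genes of each other list were above 0 as well. Under quantile normalization 10 of 11 were above 0 here, at a median of 0.18 and with none past the thresholds, beside 0.01 for all tested probes. With the replicate number as a block Serpini1 did not pass either.

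Of 24 tested adaptors of the receptors, Crk passed, with 0.59 ± 0.08 (SD, n = 6) array medians in heroin and 0.40 ± 0.11 (SD, n = 5) in saline rats, a log2 change of 0.59. These signals were low, since the lowest signal well above background was 0.21 to 0.31 array medians on these arrays. The study's RT-qPCR did not bear out the change of Crk that its own arrays gave. Of 15 tested genes of the PI3 kinase and Akt arm, 1 passed both thresholds as lower and none as higher in heroin rats. This was Foxo3, a transcription factor that Akt phosphorylates and keeps out of the nucleus, at 0.68 ± 0.17 (SD, n = 6) against 1.07 ± 0.26 (SD, n = 5) array medians, and its log2 change of -0.64 was -0.63 under quantile normalization. None of the 17 tested genes of the Ras and ERK arm passed. The medians of these lists were 0.21, 0.21 and 0.27 on the log2 scale.

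Genes known to respond to Bdnf held the most genes past both thresholds, 5 of 14, all higher in heroin rats, beside 1.79% of all probes. The list was chosen with earlier results of these data known, and Egr1, Homer1 and Dusp6 are on the study's own list, so this count is not independent evidence. Egr2, a zinc-finger transcription factor, rose from 8.22 ± 3.32 (SD, n = 5) to 15.9 ± 3.85 (SD, n = 6) array medians, or a log2 change of 1.02, and passed also under quantile normalization at 0.78. Arc, whose protein acts at the postsynapse, changed by 0.70, Egr1 by 0.66, Dusp6, a phosphatase of ERK, by 0.63, and Homer1, a postsynaptic scaffold, by 0.51. For these 4 the values under quantile normalization were 0.45, 0.41, 0.38 and 0.26, and they did not pass. Arc, Egr1, Egr2 and Homer1 are also known as genes that neuronal activity induces. The list had a median of 0.38, and 0.13 under quantile normalization.

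Of 23 tested genes of other growth factor families, Gfra1, a receptor subunit for glial cell line-derived neurotrophic factor, passed with 8.99 ± 3.16 (SD, n = 6) against 5.85 ± 1.56 (SD, n = 5) array medians, a log2 change of 0.59 that was 0.36 under quantile normalization. The median of that list was 0.22. In each list with 1 gene past the thresholds, the count stands beside 2.72% of all probes and is too small to set the list apart.

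**Figure D5:**
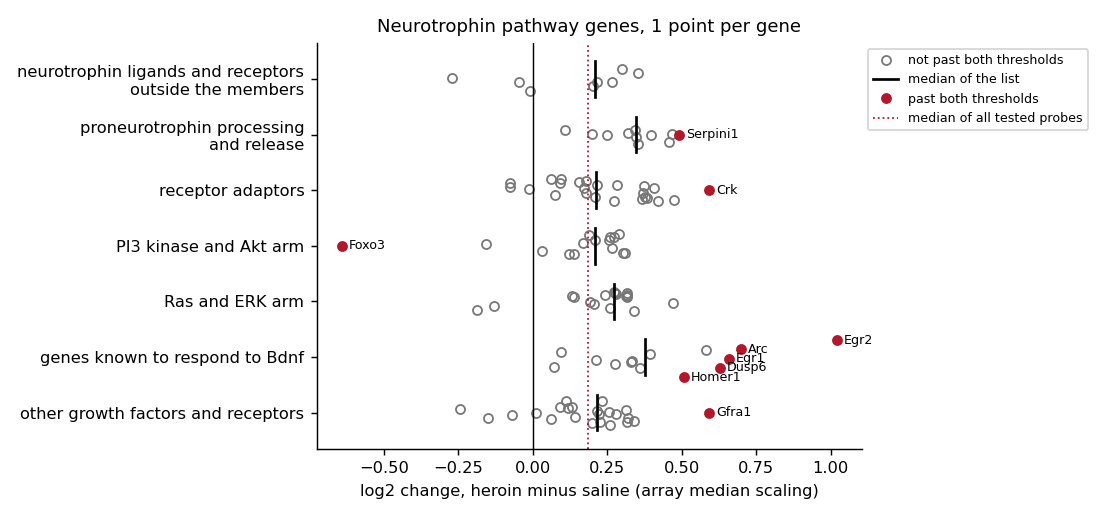
Log2 change, heroin minus saline, of each tested gene of the 7 lists, 1 point per gene by its brightest probe, with filled points past both thresholds, a bar at the median of each list and a dotted line at the median of all tested probes, 0.18. Genes known to respond to Bdnf hold 5 filled points, with Egr2 at 1.02, and Foxo3 is the single filled point left of 0, at -0.64.

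The tissue was a block of cortex with all its cell types, so fewer cells of a type and less RNA per cell cannot be told apart. The markers of cortical neurons that had a probe were detected on all arrays, although only 2 of the 5 markers of excitatory neurons, the cells that make Bdnf, had a probe. Their summed signal was 20.3 to 47.3 array medians in heroin and 16.5 to 33.7 in saline rats, a log2 change of 0.47 with an exact permutation p of 0.110. A sum weighs the brightest probe most, and here that was Camk2a, with means of 34.1 in heroin and 24.4 in saline rats. Slc17a7 had means of 2.70 and 2.10. Under quantile normalization Camk2a changed by 0.26 and Slc17a7 by 0.15. The summed signal of the 5 interneuron markers was 294 to 409 array medians in heroin and 233 to 324 in saline rats, a log2 change of 0.29 with an exact permutation p of 0.0303, and Vip among them passed both thresholds at 0.49. Under quantile normalization Vip was at 0.25 and did not pass, Gad1 was at 0.17, and Gad2, Sst and Pvalb were below 0, at -0.13, -0.035 and -0.08. For the other 10 cell classes the summed markers gave exact permutation p values of 0.119 or more. The part of these levels in the Bdnf result was not tested.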

How the data were processed

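Total RNA of 11 rats was labelled with Cy3 and hybridised to single-colour Agilent rat arrays. The authors deposited, per spot, a signal intensity corrected for background by Feature Extraction 9.5.1.1 (per the file headers) and not scaled between arrays, with the software's flags and, in a separate table, relative values, a ratio to the gene's median after scaling each array to its 50th percentile. Groups and replicate numbers came from the sample titles.

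Following the study's methods, control spots and spots marked as outliers were left out, intensities under 5 were set to 5, log2 was taken, spots of a probe were averaged, and the median of each array over all non-control probes was subtracted. A probe was detected where at least 0.5 of its spots were well above background. Probes detected on all 11 arrays, with usable spots on at least 2 arrays per group, were fitted with limma 3.58.1 (lmFit, eBayes) in R 4.3.3, and p-values were adjusted by Benjamini-Hochberg over all 25555. Single values were tested by exact two-sided permutation, and correlations by 100000 permutations. The code was tested on simulated data. Each rat is a separate animal with 1 array, and the number of arrays limits the precision.

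The alternatives were other scalings (75th percentile, quantile, detected probes, scaling before the floor), normexp background correction (offset 50), the authors' ratios, keeping marked spots, other detection filters, the methods' t-test, trend and robust eBayes, the replicate number or slide as a block, averaged probes, and leaving out each rat. The slide as a random block and the pairs with the truncated trkB probe were added after the data were seen. The members and lists were chosen with earlier results of these data known. Described were all member probes, list genes as counts with values for those past the thresholds and for further ligands and receptors, of which Ntf4 and Sort1 are reported here and the others are not (brightest probe), and the 5 probes most like Bdnf and Ntrk2. Vip and unnamed probes near the members were named after their values were seen. The methods give 12 arrays, and 11 were analysed here.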

Additional observations from a re-analysis of the deposited data

Results flagged for a closer look

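Of 14 sets of rats examined, 1 for each member probe and group, 1 held a rat far from the others. At the Ngfr probe heroin replicate 5 measured 0.39 array medians and the next heroin rat 0.32, a gap of 0.682 of the whole range of the heroin group. Chance alone places about 1 in 20 such sets past the limit, and the Ngfr signals are near the limit of detection.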

How the results depend on the processing

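The 3' Bdnf probe kept its direction and passed both thresholds under each of the 14 alternatives, at 0.69 to 0.91 on the log2 scale, and without each rat in turn, at 0.73 (without saline replicate 3) to 1.03 (without saline replicate 5). The start-codon probe of Bdnf did not pass with scaling to the 75th percentile (0.44), with quantile normalization (0.46), with scaling to the median of detected probes (0.47), or by the methods' t-test (0.66), so the number of member probes past the thresholds was 1 under each of these. It was 2 under the other alternatives and without each rat, where the start-codon probe was at 0.49 to 0.79.

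The sign of Ntf3 turned under the same 3 scalings, to -0.14, -0.058 and -0.11. That of the full-length Ntrk2 probe turned to -0.21, -0.23 and -0.18, and to -0.051 with the replicate block or the slide block, which are the same fit here, and it was -0.051 to 0.10 without each rat in turn.

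Of all tested probes, 694 passed with array median scaling, 457 with quantile normalization, 126 with normexp, 1560 without a detection filter, 1067 with detection in 1 group and 308 by the methods' t-test. Without each rat in turn the number was 343 (without saline replicate 2) to 2352 (without saline replicate 5), with 393 without saline replicate 3. Of the list genes, 9 passed, against 3 with 75th percentile scaling, 3 with quantile normalization, 2 with scaling to detected probes and 5 with normexp, and 5 (without saline replicate 3) to 14 (without saline replicate 5) without each rat. An unadjusted limma p under 0.05 was found for 4723 probes, for 1971 to 2440 under quantile, 75th percentile or detected-probe scaling, for 2708 with the replicate block, and for 2376 (without saline replicate 2) to 8788 (without saline replicate 5) without each rat. The cause was not tested.

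The difference between both Bdnf probes was 0.14 to 0.31 without each rat in turn, with an exact permutation p under 0.05 without heroin replicate 2 or 3 (0.0476 each) or saline replicate 4 (0.0381). That between both Ntrk2 probes was 0.14 to 0.46.

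Deviations of same-numbered rats correlated at 0.38, -0.13, 0.35, 0.02 and -0.24 over all probes for replicates 2 to 6, so the numbers were not shown to pair the rats beyond sharing a slide. With the replicate block the changes of the Bdnf probes were 0.90 and 0.63, and no member call changed. Among the list genes Serpini1 no longer passed, while Sos2 (0.50) and Fos (0.65) did, so that 10 passed against 9 without the block. With the slide as a random block the changes of the Bdnf probes were 0.91 and 0.66. Low signal limits what could be seen of Ngfr and Ntf4.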

Other observations

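The probes of other genes whose deviations from the group means ran most like those of the 3' Bdnf probe, among 7358 probes with a current gene name and over 11 rats, were those of Ccdc184 (Pearson r 0.92), Tgoln2 (0.90), Rab3c (0.90), Zfp667 (0.90) and Bst1 (0.89). Rab3c encodes a small GTPase of synaptic vesicles and Tgoln2 a protein of the trans-Golgi network. For full-length Ntrk2 they were Zdhhc21 (0.89), Rab27a (0.86), Fxyd7 (0.84), Scg3 (0.84) and Rpl41 (0.83). These are the highest of many values and are given as a description.

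Probes without a gene name lay close to the members in build rn3. On the strand of Ntrk2 and 3089 to 4513 bases from the start of the full-length probe, 3 probes had log2 changes of 0.35 (chr17:11492094-11492153), 0.30 (chr17:11491559-11491618) and 0.39 (chr17:11490670-11490729), where the full-length probe had 0.01. Their exact permutation p values were 0.128, 0.0108 and 0.0173, and the last had a fold change of 1.31, under the threshold of 1.4. Under quantile normalization their changes were 0.11, 0.07 and 0.14. Close to the truncated trkB probe and on its strand, probes at chr17:11676823-11676880 and chr17:11676902-11676961 had log2 changes of 0.24 each. The exact permutation test gave p values of 0.139 and 0.171 for them, and under quantile normalization they changed by 0.002 and -0.005. A probe at chr17:11676759-11676818 had no usable saline signal. Whether any of these probes belong to transcripts of Ntrk2 was not tested. On the opposite strand within the span of the Bdnf probes, 1 probe (chr3_random:977112-977171) was detected on 0 of 11 arrays.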
